A study of Mus musculus with 15 samples.

Results

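The regulators that mark or specify the layers of cortical projection neurons were examined in embryonic mouse cortex with and without the chromatin protein PHF6. They were 9 of the 23132 genes kept from the 27179 in the deposited table. They were chosen by name, as factors of the deep layers (*Tbr1*, *Bcl11b*, *Fezf2*, *Sox5*, *Foxp2* and *Tle4*, 6 genes) and of the upper layers (*Cux1*, *Cux2* and *Pou3f2*, 3 genes). The rule uses no measured value, but the genes were picked with earlier results of these data known. The 15 C57BL/6 polyA RNA libraries formed 4 groups. Whole E15.5 cerebral cortex came from 3 Phf6+/Y foetuses, the controls, and from 5 Phf6-/Y foetuses that lacked *Phf6* in every tissue. Cortical neurons from dissociated E16.5 cortex, plated in culture to enrich neurons, came from 3 Phf6+/Y;Nes-creTg/+ controls and from 4 Phf6lox/Y;Nes-creTg/+ foetuses. Both neuron groups carried Nes-cre, a transgene that expresses Cre recombinase from a nestin promoter in neural progenitors and so passes the deletion to the neurons they make. The cortices belonged to litters 1 to 3 and the neurons to litters 4 to 7, as labelled. Litters 1 to 6 each held 1 control, and litter 7 held only 1 Phf6lox/Y;Nes-creTg/+ culture.

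The neocortex is built inside out. Deep-layer neurons are born first and send axons to the thalamus, brainstem and spinal cord, and upper-layer neurons are born later and connect cortical areas with each other. The factors studied here act in newborn projection neurons, some of them already in progenitors, and several repress one another, so that a neuron keeps one projection identity. At these ages the deep-layer neurons have mostly settled and upper-layer neurons are still being made and migrating.

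Of the deep-layer members, *Tbr1* (Entrez gene 21375, chr2:61802863-61814114 of GRCm38, plus strand) encodes a T-box factor of corticothalamic and subplate neurons. *Bcl11b* (58208, chr12:107910403-108004145, minus strand) encodes the zinc finger protein CTIP2 of subcerebral projection neurons and is also used by striatal neurons. *Fezf2* (54713, chr14:12338992-12346803, minus strand) encodes a zinc finger repressor that specifies subcerebral projection neurons. *Sox5* (20678, chr6:143828425-144782287, minus strand) encodes a SOX factor that times the production of deep-layer subtypes. *Foxp2* (114142, chr6:14901349-15441977, plus strand) encodes a forkhead factor of corticothalamic neurons, and striatal and thalamic neurons express it too. *Tle4* (21888, chr19:14448072-14598183, minus strand) encodes a Groucho-type co-repressor of corticothalamic neurons that does not bind DNA itself.

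Of the upper-layer members, *Cux1* (13047, chr5:136248135-136567590, minus strand) and *Cux2* (13048, chr5:121857962-122050415, minus strand) encode related homeodomain factors of upper-layer neurons that shape their dendrites and synapses. *Pou3f2* (18992, chr4:22482095-22488366, minus strand) encodes the POU factor BRN2 of upper-layer neurons and late progenitors. The counts are 1 number per gene, so transcript forms were summed. In the annotation, antisense genes overlap 394 exonic bases of *Cux1* and 1330 of *Sox5*, and the strand setting of the counting is not given in the sources used here.

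The 250 bases before an annotated start site were available for 8 of the 9 members. Those of 3 members are shown: *Tbr1*, which had the highest level of the 9 in both control groups, and *Fezf2* and *Pou3f2*, which later differed between litters of neurons. Capitals mark matches on either strand to GGGCGG (the GC box), TAATTA (a homeodomain core, its own reverse complement) and TATAAA (the TATA box), and none of the matches shown overlap. The sequences are from RefSeq on GRCm38.p6 and run 5′ to 3′ on the strand of the gene.
Tbr1, chr2:61804203-61804452, plus strand: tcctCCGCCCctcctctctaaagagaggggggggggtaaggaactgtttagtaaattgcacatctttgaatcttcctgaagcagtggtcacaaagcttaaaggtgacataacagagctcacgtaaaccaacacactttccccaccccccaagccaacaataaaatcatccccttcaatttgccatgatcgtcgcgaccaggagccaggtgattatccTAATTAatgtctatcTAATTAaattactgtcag
Fezf2, chr14:12345866-12346115, minus strand: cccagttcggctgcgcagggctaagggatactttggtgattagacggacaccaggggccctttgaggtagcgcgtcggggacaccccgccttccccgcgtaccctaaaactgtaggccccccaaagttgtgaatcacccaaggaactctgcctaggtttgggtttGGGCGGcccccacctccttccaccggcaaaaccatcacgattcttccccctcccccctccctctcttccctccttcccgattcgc
Pou3f2, chr4:22488367-22488616, minus strand: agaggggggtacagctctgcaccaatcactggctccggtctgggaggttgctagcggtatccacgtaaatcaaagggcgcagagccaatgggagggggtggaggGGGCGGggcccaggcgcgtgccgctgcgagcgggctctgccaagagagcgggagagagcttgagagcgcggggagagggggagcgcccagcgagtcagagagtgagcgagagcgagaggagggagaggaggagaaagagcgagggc
The *Tbr1* stretch held TAATTA 2 times and the reverse complement of GGGCGG 1 time. The *Fezf2* and *Pou3f2* stretches each held GGGCGG 1 time. None of the 3 held TATAAA. Over all 32851 promoters of that length, 32.7% held GGGCGG, 4.84% held TAATTA and 12.4% held TATAAA. The *Tbr1* and *Fezf2* stretches lie within the gene coordinates given above, before an internal start, and that of *Pou3f2* lies just outside them. A match describes letters only.

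Total counts per library ranged from 16858007 to 31157700, and *Phf6* was lower in every deleted library. *Phf6* was at 40.6, 34.2 and 43.8 RPKM (reads scaled to the length of the counted exons and to the TMM-adjusted library size) in control cortex and at 9.75 to 12.7 RPKM in Phf6-/Y cortex. In neurons it was at 52.4 to 59.6 RPKM in controls and at 13.8 to 19.7 RPKM in Phf6lox/Y;Nes-creTg/+ cultures. Phf6-/Y cortex replicate 1, of litter 3, had the lowest mean correlation with its own group (0.984, against 0.986 to 0.991 in the other 4). Its 4 thalamic markers summed to 413 CPM (counts scaled to the TMM-adjusted library size, without gene length) against 39.4 to 65.0 CPM in the other 7 cortices. Its 3 cortical identity markers (*Emx1*, *Emx2*, *Neurod6*) summed to 361 CPM against 569.8 to 749.8 CPM. The part of this in the members' values was not tested, and the cortical genotype estimates of the members are therefore also given without that library. Choroid plexus markers also varied, from 0.813 to 439 CPM in sum among control cortices and from 1.61 to 304 CPM among Phf6-/Y cortices. In all groups the 6 neuron markers were at or above 3955 CPM in sum and none of the cortical identity markers was at 0.

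All 9 members were counted in every library. The lowest count was 56 reads, for *Foxp2* in neurons, and the other 8 members had at least 516 reads in each library. In control cortex *Tbr1* was at 102, 85.2 and 94.2 RPKM, a mean of 94.0 ± 8.61 (SD, n = 3), above every other member in all 3 libraries. *Bcl11b* (57.2 ± 1.15 RPKM, n = 3) and *Fezf2* (55.6 ± 2.55 RPKM, n = 3) followed with overlapping ranges. *Sox5* (37.7 ± 2.58 RPKM), *Cux1* (30.1 ± 0.601 RPKM) and *Tle4* (26.7 ± 1.31 RPKM) came next, each range clear of the one above it. *Cux2* (24.0 ± 2.65 RPKM) overlapped *Tle4* and *Pou3f2* (22.0 ± 3.52 RPKM). *Foxp2* was lowest, at 6.56, 5.23 and 6.48 RPKM.

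The order was different in control neurons. *Tbr1* was again first (68.7, 67.4 and 68.6 RPKM), and *Pou3f2*, last but one in the cortex, was second (56.6, 48.2 and 63.6 RPKM). *Fezf2* (42.2 ± 5.41 RPKM, n = 3) overlapped *Cux1* (38.0 ± 0.0244 RPKM, n = 3), and *Cux2* (33.8 ± 0.522 RPKM, n = 3) lay below both. *Bcl11b* (26.6 ± 1.18 RPKM), *Sox5* (17.4 ± 2.50 RPKM), *Tle4* (8.46 ± 0.510 RPKM) and *Foxp2* (1.14 ± 0.229 RPKM) followed with ranges that did not overlap. With the length of the longest transcript in place of the counted exons, *Cux1* was at 15.4 RPKM in control cortex and 19.5 RPKM in control neurons and *Cux2* at 14.0 and 19.7 RPKM, so the place of these 2 genes in the order rests on the length used.

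**Figure D1:**
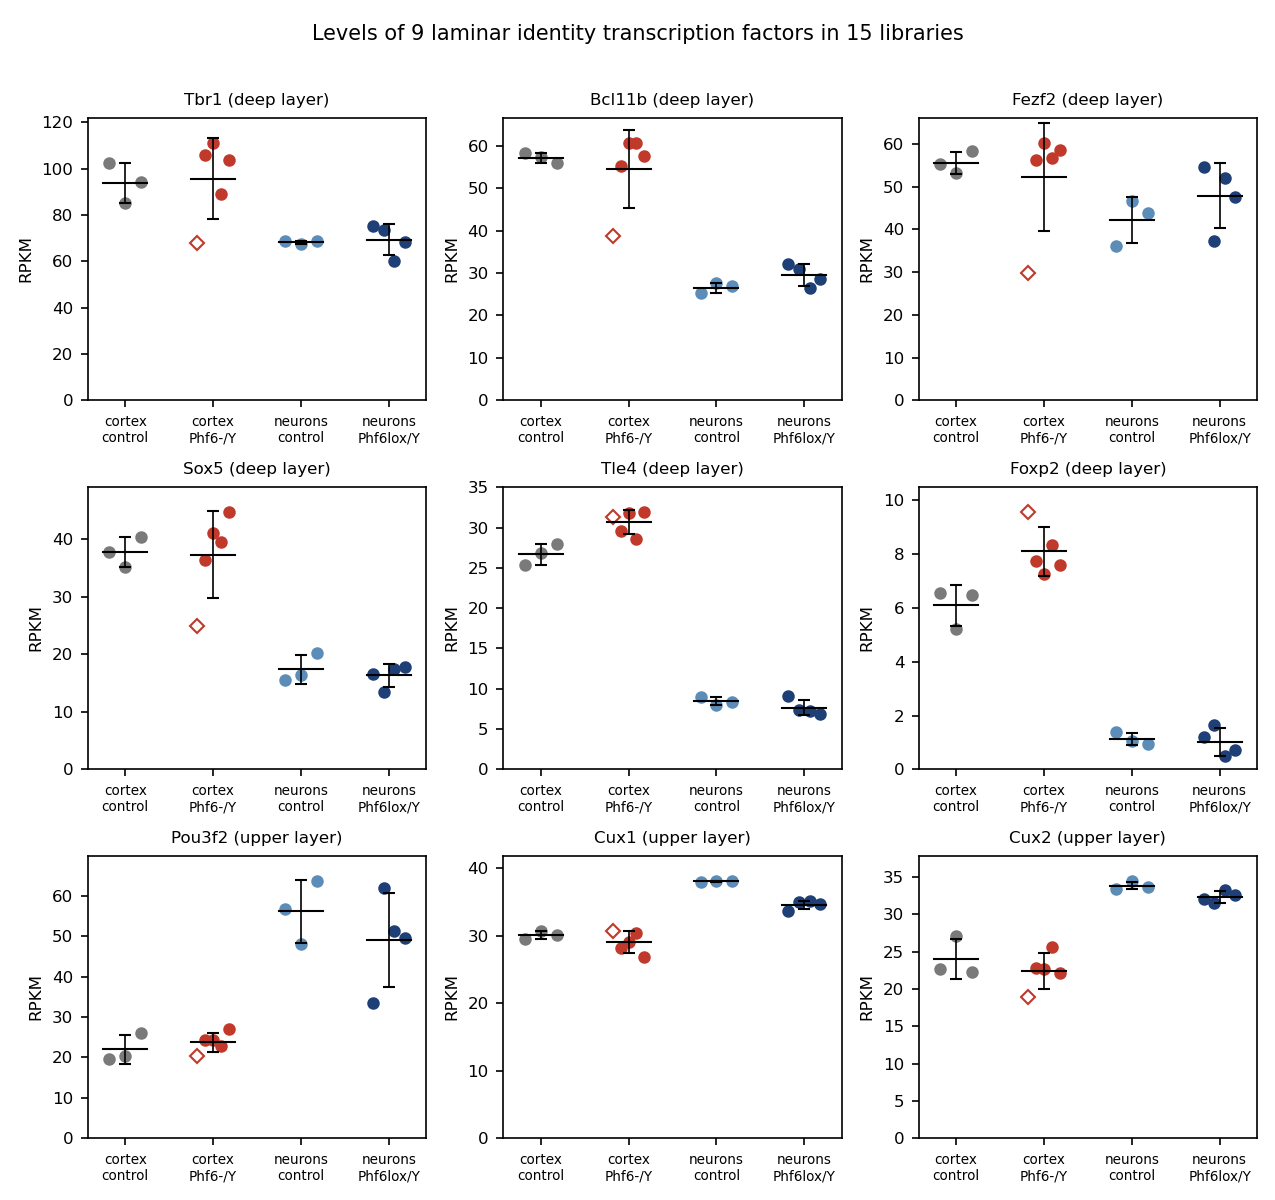
Level of each member in RPKM (y axis) in the 4 groups (x axis). Points are libraries, the horizontal line is the group mean and the bars are ± 1 SD. The open diamond is Phf6-/Y cortex replicate 1, which is the lowest of the 8 cortices for *Tbr1* (67.8 RPKM), *Bcl11b*, *Fezf2*, *Sox5* and *Cux2* and the highest for *Foxp2* (9.56 RPKM).

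The 2 control groups were compared first, since they show how far the members move between intact cortex and cultured neurons. All 6 deep-layer members were lower in control neurons than in control cortex and all 3 upper-layer members were higher, and all 9 passed an FDR below 0.05 by the quasi-likelihood test of edgeR (FDR after Benjamini and Hochberg). This comparison called 51.1% of the 14320 genes tested, 24.7% higher and 26.4% lower in neurons, so a call by itself was common. With library totals in place of TMM as scaling, 33.0% of the calls were higher in neurons in place of 48.4%, the median log2 fold change of all genes moved from -0.03 to -0.17, and all 9 members kept their direction and call. The groups differ in embryonic day, in culture and in the Nes-cre transgene, and these cannot be told apart. In bulk RNA, fewer cells of a type and less RNA per cell cannot be told apart either.

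The falls were largest in 2 genes that mark corticothalamic neurons. *Foxp2* fell from 5.23 to 6.56 RPKM in control cortex to 0.955 to 1.40 RPKM in control neurons (log2 fold change -2.42, SE 0.16, FDR = 1.22e-07), which is 5.35-fold. *Tle4* fell from 25.3, 26.8 and 27.9 RPKM to 9.02, 8.02 and 8.33 RPKM (log2 fold change -1.66, SE 0.09, FDR = 3.39e-08). *Tbr1*, of the same neurons, fell by less (log2 fold change -0.47, SE 0.08, FDR = 3.70e-04).

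The 2 factors of subcerebral neurons also differed in size of change. *Bcl11b* fell from 58.3, 57.3 and 56.0 RPKM to 25.3, 27.6 and 26.8 RPKM (log2 fold change -1.11, SE 0.07, FDR = 1.47e-07). *Fezf2*, which acts upstream of it, fell from 55.3, 53.2 and 58.2 RPKM to 36.2, 46.6 and 43.9 RPKM (log2 fold change -0.40, SE 0.10, FDR = 0.00430). The *Fezf2* call was lost (FDR = 0.133) when both genotypes shared 1 fit. *Sox5* fell by 1.12 on the log2 scale (SE 0.10, FDR = 1.85e-06).

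Of the upper-layer members, *Pou3f2* rose most, from 19.6, 20.4 and 26.0 RPKM to 56.6, 48.2 and 63.6 RPKM (log2 fold change 1.35, SE 0.13, FDR = 8.55e-06). *Cux2* rose from 22.6, 27.0 and 22.3 RPKM to 33.4, 34.4 and 33.7 RPKM (log2 fold change 0.49, SE 0.09, FDR = 4.96e-04). *Cux1* rose by least (log2 fold change 0.33, SE 0.07, FDR = 0.00173), and its 3 control neuron libraries lay within 38.0 to 38.1 RPKM. In none of the 9 members did the 2 control groups overlap, as for 60.5% of the genes tested.

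**Figure D2:**
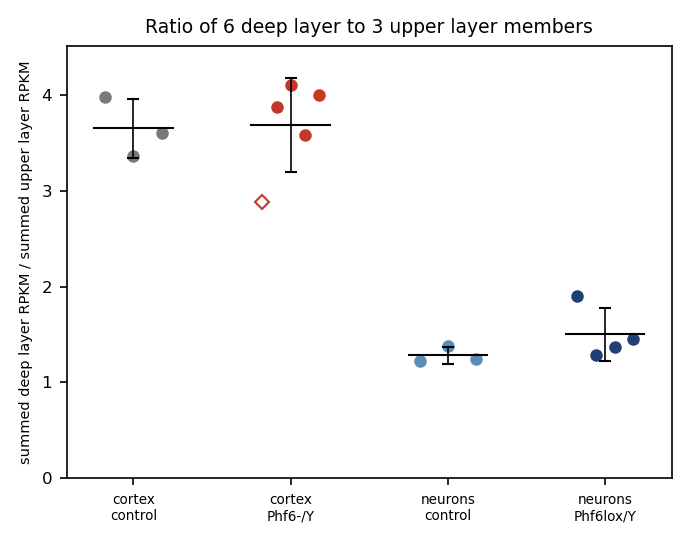
Ratio of the summed RPKM of the 6 deep-layer members to that of the 3 upper-layer members (y axis) in the 4 groups (x axis). Points are libraries, the open diamond is Phf6-/Y cortex replicate 1, and lines and bars are the mean ± 1 SD. All 8 cortices lie at or above 2.88 and all 7 neuron libraries at or below 1.90.

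The summed deep-layer to upper-layer ratio stood at 3.98, 3.36 and 3.61 in control cortex and at 1.22, 1.38 and 1.25 in control neurons, a description that repeats the single-gene changes. Among Phf6-/Y cortices it was 2.88 in replicate 1 and 3.58 to 4.11 in the other 4, against 3.36 to 3.98 in controls. In Phf6lox/Y;Nes-creTg/+ neurons it was 1.90 in replicate 1, the culture of litter 7, and 1.28, 1.37 and 1.46 in the other 3. The genotypes therefore overlapped in both tissues.

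Other layer genes, taken from lists, were counted in the same fit. Of 8 other deep-layer genes, 3 were higher and 3 lower in control neurons, and of 10 other upper-layer genes 5 were higher and 1 was lower. Subplate genes, which mark the earliest cortical neurons, were lower for 3 of the 4 tested and higher for none. Of 9 other regulators of projection neuron fate, 8 were higher and none was lower. The median log2 fold changes of these lists were -0.11, 0.32, -0.89 and 0.54, beside -0.03 over all genes tested. Of 10 paralogs of the members, 3 were higher and 4 lower (median -0.16).

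The largest rises among the genes counted in these lists were *Bhlhe22* (128 to 192 CPM in control cortex and 659 to 685 CPM in control neurons, log2 fold change 2.06, SE 0.13), which encodes a basic helix-loop-helix factor of cortical area and projection identity, *Id2* (1.86, SE 0.13) and *Mef2c* (1.84, SE 0.21). The largest falls were those of *Fezf1*, *Sox6* and *Pcp4*. *Fezf1*, the paralog of *Fezf2*, had 88 to 322 reads in control cortex and 0 to 6 reads in control neurons. *Sox6*, a SOXD relative of *Sox5* used by progenitors and interneurons, fell by 1.77 on the log2 scale (SE 0.16), and *Pcp4*, a calmodulin regulator of subcerebral neurons, fell by 1.69 (SE 0.20).

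**Figure D3:**
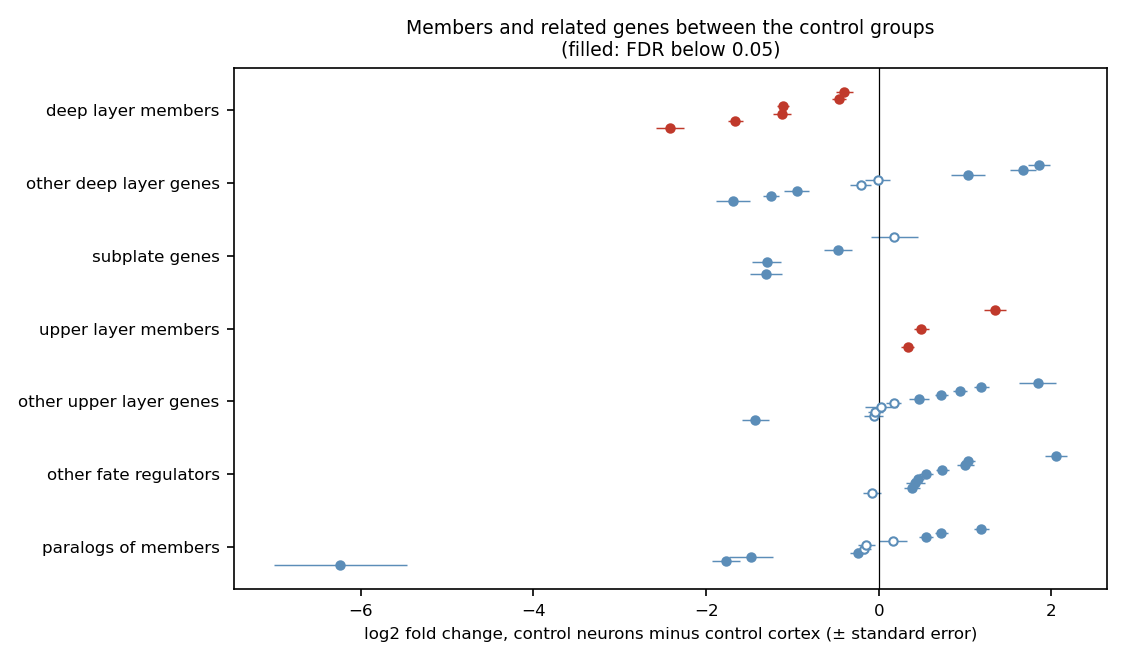
Log2 fold change between control neurons and control cortex (x axis, ± SE) for each tested gene of 7 lists (y axis), with the members in red and other genes in blue. Filled points passed an FDR below 0.05. All 6 deep-layer members lie left of 0 and all 3 upper-layer members right of it, while the other lists spread to both sides or hold genes that did not pass. A gene in 2 lists is drawn in both, and the point left of -6 is *Fezf1*, whose fitted value depends on the prior count.

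Markers of other cells moved in the same comparison. Of 11 progenitor markers 10 were lower in control neurons, with summed levels of 792 to 1094 CPM against 2451 to 2684 CPM in control cortex. All 9 striatal projection neuron markers were lower (at most 23.3 CPM in sum against 131 to 143 CPM), as were all 7 ganglionic eminence and interneuron markers (177 to 255 CPM against 646 to 813 CPM) and all 4 thalamic markers (14.3 to 17.2 CPM against 39.4 to 65.0 CPM). Striatal and thalamic neurons express *Foxp2*, and striatal neurons express *Bcl11b*. Of 6 neuron markers, 4 were higher and 1 was lower. The part of these cells in the members' differences was not tested.

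Loss of PHF6 was then examined in E15.5 cortex. *Foxp2* was the 1 member of 9 that passed an FDR below 0.05, and it was upregulated in Phf6-/Y cortex. The same fit called 0.386% of 14750 genes. *Foxp2* was at 6.56, 5.23 and 6.48 RPKM in controls and at 9.56, 7.73, 7.27, 8.36 and 7.58 RPKM in Phf6-/Y cortices. All 5 Phf6-/Y values exceeded the highest control value. The fitted log2 fold change was 0.44 (SE 0.08, FDR = 0.0368), or 1.36-fold, and the within-litter differences were 0.30, 0.52 and 0.54 on the log2 scale in litters 1, 2 and 3. Without Phf6-/Y replicate 1 the log2 fold change was 0.41 (SE 0.10) and the call was lost (FDR = 0.155). The call was lost in 6 of the 8 fits that left out 1 cortex, with FDR values of 0.0525 to 0.239. These were the fits without any 1 control or without Phf6-/Y replicate 1, 2 or 3. The log2 fold change stayed between 0.40 and 0.52 over all 8 fits. Because litter was a term, leaving out a control or replicate 1 also took the rest of its litter out of the genotype estimate.

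The striatal projection neuron markers summed to 131 to 143 CPM in control cortices and to 115 to 158 CPM in Phf6-/Y cortices, and none of the 9 passed the test. Thalamic markers summed to 39.4 to 65.0 CPM in controls and to 48.3 to 413 CPM in Phf6-/Y cortices, and none of the 4 passed. Their median log2 fold change was 1.05, and 0.44 without Phf6-/Y replicate 1, with 3 of 4 positive both times. The part of striatal or thalamic cells in the *Foxp2* difference was not tested. *Foxp1*, the paralog of *Foxp2* that cortical and striatal projection neurons express, had a log2 fold change of 0.11 (SE 0.08, FDR = 0.667), and of 0.17 (SE 0.09, FDR = 0.644) without Phf6-/Y replicate 1.

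*Tle4*, another corticothalamic gene, was at 25.3, 26.8 and 27.9 RPKM in control cortices and at 31.4, 29.6, 31.8, 28.6 and 31.9 RPKM in Phf6-/Y cortices. All 5 deleted libraries lay above the controls, and the difference was positive in 3 of 3 litters (0.11, 0.19 and 0.31 on the log2 scale). Its log2 fold change of 0.19 (SE 0.07, unadjusted p = 0.0151 in the fit by edgeR across all genes) did not pass (FDR = 0.326), and without Phf6-/Y replicate 1 it was 0.15 (SE 0.08). *Foxp2* and *Tle4* were the 2 of 9 members whose genotype groups did not overlap in the cortex, beside 5.02% of all genes tested. *Tbr1*, which marks the same neurons, overlapped fully between genotypes (85.2 to 102 RPKM in controls, 67.8 to 111 RPKM in Phf6-/Y).

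For 4 deep-layer members the cortical estimate turned with 1 library. *Fezf2* was at 55.3, 53.2 and 58.2 RPKM in controls and at 29.7 RPKM in Phf6-/Y replicate 1, but at 56.2, 60.2, 56.7 and 58.5 RPKM in the other 4. Its log2 fold change was -0.21 (SE 0.18) with that library and 0.06 (SE 0.08) without it. *Bcl11b* went from -0.14 (SE 0.11) to 0.05 (SE 0.08), *Sox5* from -0.10 (SE 0.13) to 0.10 (SE 0.08) and *Tbr1* from -0.03 (SE 0.16) to 0.19 (SE 0.09). None passed the test either way (FDR of 0.597 or more by edgeR). Without the library all 6 deep-layer members had a positive estimate, with a median of 0.13, and 0 of them passed. Over all genes tested, 7645 of 14742 were positive, with a median of 0.01. In the same refit 4 of 4 subplate genes (median 0.16) and 6 of 7 ganglionic eminence and interneuron markers (median 0.17) were positive. Of 8 other deep-layer genes, 4 were positive.

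The upper-layer members showed small estimates in the cortex. *Cux2* was at 22.6, 27.0 and 22.3 RPKM in controls and 18.9, 22.8, 22.7, 25.6 and 22.1 RPKM in Phf6-/Y cortices (log2 fold change -0.13, SE 0.08, FDR = 0.621). *Cux1* (-0.05, SE 0.07) and *Pou3f2* (0.08, SE 0.08) did not pass either (FDR = 0.836 and 0.786). Without Phf6-/Y replicate 1 the 3 estimates were -0.08, -0.09 and 0.09 in the order *Cux2*, *Cux1*, *Pou3f2*.

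**Figure D4:**
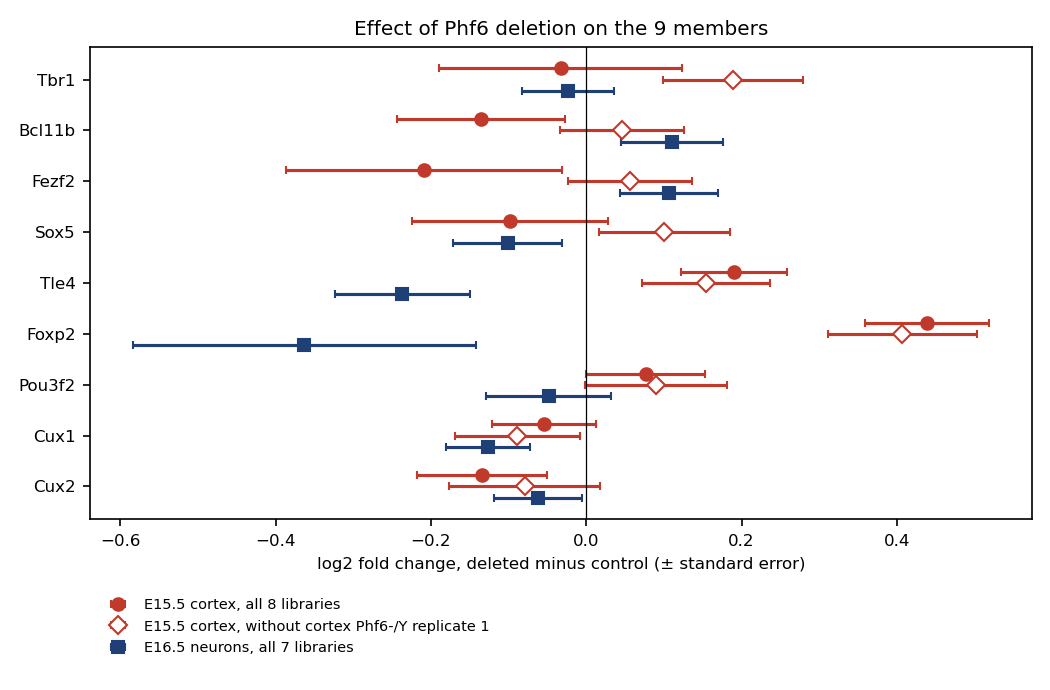
Log2 fold change between deleted and control libraries (x axis, ± SE) for the 9 members (y axis). Red circles are E15.5 cortex, open diamonds the same without Phf6-/Y replicate 1, and blue squares E16.5 neurons. *Foxp2* has the largest cortical value, 0.44 with all libraries and 0.41 without that one. With all libraries *Foxp2* and *Tle4* lie on opposite sides of 0 in the 2 tissues, as do *Bcl11b*, *Fezf2* and *Pou3f2*.

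In cultured neurons 0 of 9 members passed an FDR below 0.05, beside 0.273% of 13909 genes. Unadjusted p-values from edgeR were under 0.05 for 2 members, *Tle4* and *Cux1*, and DESeq2 and limma-trend also called 0 members. *Cux1* was at 38.0, 38.0 and 38.1 RPKM in controls and at 33.7, 34.9, 35.1 and 34.6 RPKM in Phf6lox/Y;Nes-creTg/+ cultures. All 4 deleted cultures lay below the 3 controls, and the within-litter differences were -0.12, -0.12 and -0.14 on the log2 scale. The log2 fold change was -0.13 (SE 0.05, unadjusted p = 0.0343 by edgeR, FDR = 0.426). *Cux2* had the same arrangement, with 33.4, 34.4 and 33.7 RPKM in controls and 32.0, 31.5, 33.2 and 32.6 RPKM in deleted cultures (log2 fold change -0.06, SE 0.06, FDR = 0.779). These were the 2 of 9 members whose groups did not overlap, beside 7.23% of all genes tested.

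*Tle4* was at 9.02, 8.02 and 8.33 RPKM in control neurons and at 9.10, 7.41, 7.21 and 6.92 RPKM in deleted cultures, where the highest value was that of litter 7. It was lower in 3 of 3 litters with a control (-0.28, -0.15 and -0.27 on the log2 scale), with a log2 fold change of -0.24 (SE 0.09, FDR = 0.338). *Foxp2* was at 1.40, 1.06 and 0.955 RPKM in controls and at 1.20, 1.64, 0.504 and 0.70 RPKM in deleted cultures. Its litters went different ways (0.23, -1.08 and -0.45 on the log2 scale), and its log2 fold change of -0.36 (SE 0.22, FDR = 0.615) was the least precise of the 9. *Bcl11b* (0.11, SE 0.07) and *Fezf2* (0.11, SE 0.06) had positive estimates, and *Tbr1*, *Sox5* and *Pou3f2* lay between -0.10 and -0.02, all with an FDR of 0.607 or more.

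The genotype effects in neurons and in cortex were set against each other in 1 fit over all 15 libraries. The 2 effects differ in kind of deletion (in every tissue or by Nes-cre), embryonic day and culture, and these cannot be told apart. None of the 9 members passed an FDR below 0.05, and the fit called 0.0133% of 15001 genes. DESeq2 and limma-trend called 0 members as well. The 2 members with an unadjusted p under 0.05 were *Tle4* and *Foxp2*, which were positive in the cortex and negative in neurons. The difference was -0.43 for *Tle4* (SE 0.10, unadjusted p = 6.06e-04 by edgeR, FDR = 0.568) and -0.77 for *Foxp2* (SE 0.22, unadjusted p = 0.00307 by edgeR, FDR = 0.657). Without Phf6-/Y cortex replicate 1 the differences were -0.39 (SE 0.11) and -0.73 (SE 0.24).

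The litters of one labelled day were then compared with genotype as a term. In neurons, 2 of 9 members differed between litters 4 to 7 at an FDR below 0.05, *Fezf2* and *Pou3f2*, beside 5.01% of 13909 genes. *Fezf2* was lowest in litter 4, where the control was at 36.2 RPKM and the deleted culture at 37.4 RPKM, and was at 46.6 and 52.0 RPKM in litter 5, at 43.9 and 47.5 RPKM in litter 6 and at 54.6 RPKM in litter 7. Both cultures of litter 4 lay below all 5 others. The fitted litter effects spanned 0.52 on the log2 scale (FDR = 0.010 by edgeR). *Pou3f2* was at 33.5 RPKM in litter 7 and at 48.2 to 63.6 RPKM in the other 6 cultures, with a span of 0.79 (FDR = 0.0122). Without the culture of litter 7 the span was 0.25 and the call was lost (FDR = 0.316), as it was by DESeq2 with all cultures (FDR = 0.148). The call of *Fezf2* was lost without the deleted culture of litter 4 (span 0.46, FDR = 0.0867).

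*Sox5* (span 0.39, FDR = 0.0642) and *Foxp2* (span 0.99, FDR = 0.0789) did not pass by edgeR, and of 13 alternative settings 8 called *Sox5* and 7 called *Foxp2*. *Foxp2* was at 1.40 and 1.64 RPKM in litter 4 and at 0.504 to 1.20 RPKM in the other litters. *Cux1* and *Cux2* hardly varied, with spans of 0.05 and 0.07. The median span over all genes tested was 0.32.

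**Figure D5:**
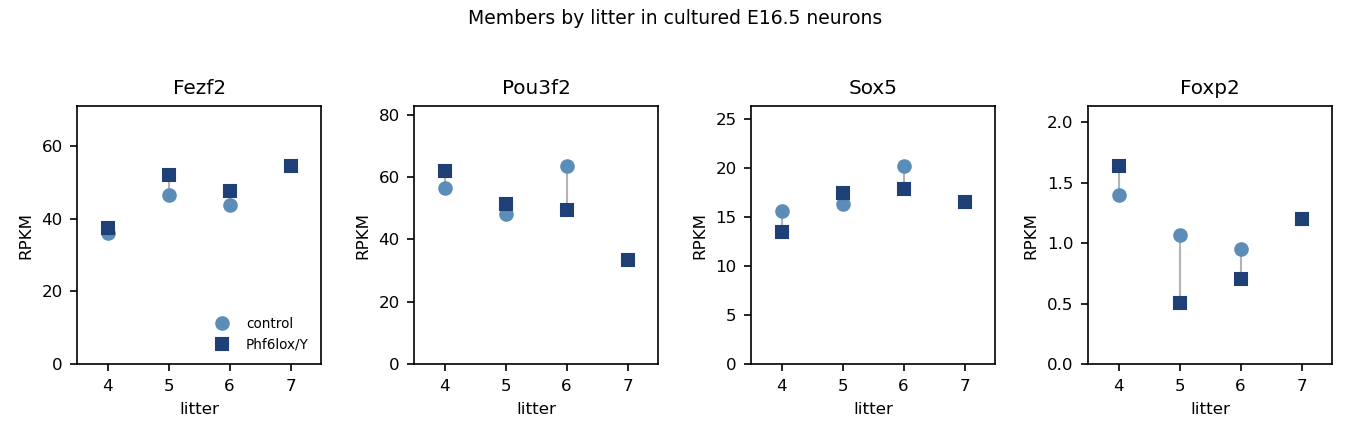
Levels in RPKM (y axis) of 4 members by litter (x axis) in E16.5 neurons, with controls as circles, Phf6lox/Y;Nes-creTg/+ cultures as squares and a grey line joining cultures of 1 litter. *Fezf2* is lowest in both cultures of litter 4, and *Pou3f2* is lowest, at 33.5 RPKM, in the single culture of litter 7.

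In cortex 0 of 9 members differed between litters 1 to 3 by edgeR, beside 1.7% of 14750 genes. Unadjusted values under 0.05 were those of 2 members, *Pou3f2* (FDR = 0.196) and *Foxp2* (FDR = 0.192). DESeq2 and limma-trend called 0 members too. The largest span was that of *Fezf2* (0.50, FDR = 0.471), whose low value was that of Phf6-/Y replicate 1. Its control litter mate was at 55.3 RPKM. Without that control, 4 members (*Tbr1*, *Bcl11b*, *Fezf2* and *Sox5*) were called, and without the low library itself none was.

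Other layer genes were also tested by genotype. In the cortex, 0 of 8 other deep-layer, 4 subplate, 10 other upper-layer and 9 other fate regulator genes tested passed, with or without Phf6-/Y replicate 1, beside 0.386% of all genes tested. In all, 2 of 5 Cajal-Retzius markers, genes of the earliest reelin-making neurons at the cortical surface, were higher in Phf6-/Y cortex. *Lhx5* was at 6.33 to 13.9 CPM in controls and at 8.07 to 27.2 CPM in deleted cortices (log2 fold change 0.77, SE 0.14, FDR = 0.0368), and *Calb2* at 12.3 to 18.3 and 17.4 to 26.0 CPM (0.56, SE 0.11, FDR = 0.0393). Without Phf6-/Y replicate 1 both calls were lost (FDR = 0.209 and 0.191), with log2 fold changes of 0.69 (SE 0.18) and 0.52 (SE 0.13). In that refit *Reln*, which encodes the reelin protein itself, was called instead (0.42, SE 0.08, FDR = 0.0398, against 0.22, SE 0.12, FDR = 0.603 with all cortices). The median of the 5 markers was 0.29 with all cortices and 0.42 without that library.

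In neurons, 1 of 4 subplate genes and 2 of 10 other upper-layer genes were higher in Phf6lox/Y;Nes-creTg/+ cultures and none was lower, beside 0.273% of all genes tested called in either direction. *Nr4a2*, which encodes a nuclear receptor of subplate neurons, was at 16.9 to 29.0 CPM in controls and at 33.1 to 47.3 CPM in deleted cultures (log2 fold change 0.87, SE 0.09, FDR = 5.96e-04). *Lmo4* (0.34, SE 0.06, FDR = 0.0148) and *Mef2c* (0.36, SE 0.07, FDR = 0.0382), upper-layer regulators of smaller change, also rose. Another 4 marker genes, of other cells, rose in the same fit. They were *Reln* (0.81, SE 0.06) of Cajal-Retzius cells, *Sst* (0.92, SE 0.10) of interneurons, *Lhx9* (0.82, SE 0.14) of the thalamus and *Ttr* (2.84, SE 0.27) of choroid plexus. Each was the only one called of its list, of 5, 7, 3 and 1 markers tested in that order. The median log2 fold change was 0.81 for Cajal-Retzius, 0.02 for ganglionic eminence and interneuron and -0.006 for thalamic markers. The *Ttr* value rests on low levels, 0.403 to 2.12 CPM (11 to 46 reads) in control neurons and 2.43 to 22.3 CPM in deleted cultures.

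For each member the 3 genes with the most similar levels were listed, by the smaller of 2 Pearson correlations of log2 CPM, over 8 cortex and over 7 neuron libraries, among 9428 genes. *Pou3f2* had the closest, *Gpm6b* (a proteolipid of neurons and glia, r of 0.95 and 0.97), *Zfp229* and *Ireb2*. *Fezf2* went with *Sh3bp4* (0.92 and 0.94), *Cdh13* and *Prickle1*, *Cux2* with *Inpp1* (0.92 and 0.94), *Hr* and *Col9a3*, and *Foxp2* with *Pbx3* (0.88 and 0.90), *Sorcs1* and *Slc18a2*. *Sox5* went with *Stk32b*, *Gas7* and *Hspa12a*, *Bcl11b* with *Map2k1*, *Ccdc92b* and *Bcr*, and *Tbr1* with *St3gal4*, *Smoc1* and *Lipe*. The lowest values were those of *Cux1* (*Ppil3*, *Sprtn* and *Fmnl3*, 0.77 or less for the smaller r) and *Tle4* (*Cox16*, *Zfp521* and *Ankrd42*, 0.72 or less). The libraries of a tissue share litters and, in the cortex, include Phf6-/Y replicate 1, so these values are a description.

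Among the members themselves, some correlations across the 8 cortices changed without that library and others did so less. *Bcl11b* and *Fezf2*, partners in subcerebral fate, had r = 0.97 over 8 cortices and 0.28 without Phf6-/Y replicate 1, and 0.30 over the 7 neuron libraries. *Fezf2* and *Sox5* had 0.95, 0.82 without that library and 0.50 in neurons. *Cux1* and *Cux2*, the paralog pair, had 0.16, 0.66 without it and 0.81 in neurons. *Foxp2* and *Tle4* had 0.64, 0.57 without it and 0.56 in neurons.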

How the data were processed

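The authors deposited counts of reads per Entrez gene for 15 libraries, made from paired-end stranded TruSeq reads aligned to mm10 with Rsubread and counted with featureCounts and its inbuilt RefSeq annotation. Of 27179 entries, those without an identifier (0.349% to 0.605% of counts), unmatched, predicted, ribosomal or pseudogene entries were removed. Genes passing filterByExpr were tested with edgeR 4.0.16 (TMM, robust quasi-likelihood F test, Benjamini-Hochberg FDR below 0.05). Genotype was tested in each tissue on its own with litter as a term. A litter without both genotypes, such as litter 7, gives no genotype difference to that estimate. The same holds for litter 3 when Phf6-/Y cortex replicate 1 is left out. The study's methods also have a litter term but use limma. The 2 control groups were compared in a fit of the controls alone, and the difference between tissues in 1 fit of all libraries with litter as a term. Litter, given by the labels, pairs the libraries. Deviations from group means correlated at -0.05 to 0.39 between litter mates of the 2 genotypes in cortex (5 pairs) and 0.16 to 0.34 in neurons (3 pairs). Between the 2 genotypes of different litters they correlated at -0.35 to 0.06 in cortex (10 pairs) and -0.33 to 0.29 in neurons (9 pairs). The ranges overlapped in both tissues. RPKM used 1 TMM scaling over all libraries and the deposited exon length. The study's legends show the libraries as individual foetuses.

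The fits were tested on simulated data. DESeq2 1.42.0, limma 3.58.1, other scalings, no filter, no litter term and each library left out were tried. The values of list genes without Phf6-/Y cortex replicate 1 or without the litter 7 culture were chosen after seeing the data. The members and lists were chosen with earlier results of these data known. Genes other than members were named by a rule: those of the lists that passed in a genotype comparison, the 3 largest rises and falls between control groups, and the 3 most similar genes per member. Of the listed genes, 2 are not reported here and were left out of every list count, sum and figure.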

Additional observations from a re-analysis of the deposited data

Results flagged for a closer look

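In groups of 4 or 5 libraries, a library was picked out where its gap to the nearest other exceeded Dixon's 95% limit, which chance passes in about 1 of 20 groups. Of 56 groups of values examined, 7 had such a library, and 4 of the 7 were Phf6-/Y cortex replicate 1. In that library *Bcl11b* was at 38.6 RPKM, against 55.2 to 60.6 RPKM in the other 4 Phf6-/Y cortices, and *Fezf2* at 29.7 RPKM against 56.2 to 60.2 RPKM. Its other fate regulators summed to 3359 CPM, the lowest of the group, and its thalamic markers to 413 CPM, the highest. The part of thalamic tissue in these values was not tested.

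Phf6-/Y cortex replicate 4 had the highest choroid plexus sum (304 CPM) and meningeal sum (273 CPM) of its group. Phf6lox/Y;Nes-creTg/+ neuron replicate 2 had the highest sum of other fate regulators (8800 CPM).

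The genotype effect on *Sst*, an interneuron peptide gene and not a member, differed between neurons and cortex by 1.17 on the log2 scale (SE 0.16, FDR = 0.0236 for the interaction by edgeR). Kind of deletion, embryonic day and culture cannot be told apart in this difference.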

How the results depend on the processing

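Of 923 values recomputed under another setting, 825 were counted as kept. Fold changes were kept if direction and side of the threshold held, and levels and ratios if they moved by less than the spread. A count of members could change slightly and still be kept. Litter spans are positive by definition, so only their side of the threshold could change. All 9 members stayed called between the control groups except *Fezf2* in 1 fit over both genotypes. With no replicate block, that is without pairing by litter, 0 members were called by genotype in the cortex, and the estimates of *Tbr1* became 0.017 in cortex, 0.023 in neurons and -0.0021 for the difference (-0.0074 with library totals). With each library left out, 0 to 1 members were called by genotype in cortex, 0 to 4 by litter in cortex and 2 to 4 by litter in neurons. Litter in neurons called 1 member by DESeq2 and 4 with library totals or without the filter. Over all settings tried the cortical log2 fold change ran from -0.24 to 0.19 for *Tbr1*, -0.26 to 0.046 for *Bcl11b*, -0.39 to 0.056 for *Fezf2*, -0.22 to 0.10 for *Sox5* and -0.0066 to 0.16 for *Pou3f2*. In neurons it ran from -0.083 to 0.041 for *Tbr1* and -0.20 to 0.11 for *Pou3f2* (-0.14 to 0.11 with each library left out). The difference between tissues ran from -0.21 to 0.22 for *Tbr1*, -0.0059 to 0.19 for *Cux2*, -0.20 to 0.13 for *Sox5* and -0.31 to 0.027 for *Pou3f2* (-0.22 to 0.027 with each library left out). With the longest transcript as length, the log2 deep-layer to upper-layer ratio was 2.34 in control cortex and 0.66 in control neurons. Apart from the library-specific and length-specific changes above, the cause was not tested. *Foxp2* in neurons rests on 56 to 315 reads per library, which limits its precision.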
